A study of Drosophila melanogaster with 58 samples.

Results

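The genes of the DNA replication machinery were followed through wing development in *Drosophila melanogaster*, in wild-type wings and in wings in which cell cycle regulators were expressed past the normal time of cell cycle exit. With earlier results of these data known, 42 genes were listed by FlyBase symbol for what their products do at the origin and at the replication fork. Of these, 37 were matched to a FlyBase identifier among the 17559 genes counted, *RpA-70* through its synonym *RPA1*, and *Orc1*, *Mcm3*, *PolD3*, *RPA2* and *RPA3* were not analysed here. All 37 genes had enough counts to be tested in the wild-type and in the transgenic libraries. By role, 8 belong to origin licensing and firing, 10 to the replicative helicase, 9 to the polymerases, 5 to the sliding clamp and its loader, 1 to single-strand binding, 2 to nucleotide supply and 1 to flap removal, and 1 encodes a promoter-binding factor. They lie on all large chromosome arms, with 8 genes on 2L, 9 each on 2R, 3L and 3R, and 2 on X.

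RNA was sequenced in 24 libraries of female wings, 2 per group. Wild-type wings were taken at the wandering late larva (L3) and at 6, 18, 24, 36 and 44 h after puparium formation (APF). Transgenic wings came from 3 genotypes at stages equivalent to 24 h and 44 h APF. CycD_E2F wings carried UAS-CycD, UAS-Cdk4, UAS-E2F1 and UAS-DP, E2F wings carried UAS-E2F1 and UAS-DP, and Ctr wings carried none of these. All 3 genotypes shared w, hs-FLP, the flip-out driver tub>CD2>GAL4, UAS-GFP and the temperature-sensitive GAL4 repressor tub-gal80TS, so the controls went through the same heat shock and temperature shift. The ubiquitous tubulin promoter drives GAL4 only in cells in which the flip-out cassette was excised, so a library can hold cells without the transgene products. The labels do not say that the 2 libraries of a group came from separate animals or days, so a p-value measures the spread between these libraries, which may be technical.

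Before a chromosome is copied, the origin recognition complex, Cdc6 and Cdt1 load the Mcm2-7 ring on DNA, which licenses the origin, and Geminin blocks Cdt1 once this is done. The ring becomes the active helicase with Cdc45 and the 4 GINS proteins, Sld5 and Psf1 to Psf3. Primase and DNA polymerase alpha then start the new strands, polymerases delta and epsilon extend them on the PCNA clamp that replication factor C loads, and ribonucleotide reductase supplies the nucleotides. In flies, many of these genes are transcribed under the activator E2F1 with its partner DP, which Cyclin D with Cdk4 releases from the retinoblastoma-family repressors, and under Dref, which binds the DNA replication-related element (DRE). Wing cells pause in G2 early in metamorphosis, pass through a last cycle and then leave the cell cycle.

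Promoter sequences were examined first, since E2F1 and DP are what the transgenes supply. In the RefSeq promoters on the Release 6 genome, from 250 bases before to 50 bases after the annotated start, an E2F match was any of TTTCCCGC, TTTCGCGC, TTTGCCGC or TTTGGCGC, a DRE was TATCGATA, and the Motif 1 core was GGTCACAC, each exact and on either strand. An E2F match was present in 14 of the 37 genes (37.8%) and in 6.43% of the 13944 promoters of protein-coding genes. The DRE was present in 13 genes (35.1%) and in 9.37% of all promoters, and both together in 5 genes (13.5%) and in 0.588% of all. The Motif 1 core was in 4 genes (10.8%) and in 7.7% of all promoters. Neither an E2F match nor a DRE was held by 15 genes (40.5%) and by 84.8% of all promoters. A match describes letters and does not show binding, and the lack of an exact match does not show that a gene has no site.

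The position of the E2F match also differed in these promoters. Of the 16 E2F matches in the 14 genes, 11 (68.8%) began downstream of the annotated start, at positions 3 to 37, whereas 141 of the 962 matches in all promoters (14.7%) did so. The windows below show 26 bases around the matches on arms 2L, 3L, 3R and X, on the strand of the gene and with the match in capitals, because these are the letters by which the genes are grouped further on. *Orc5* lies at chr2L:13829838-13829863, *Mcm2* at chr3R:8264997-8265022, *Mcm5* at chr3R:10788547-10788572 and *Mcm6* at chrX:6674391-6674416. *Sld5* lies at chr3R:26056515-26056540, *Psf1* at chr3L:1247715-1247740, *Prim2* at chr3L:20361556-20361581 and *PolE1* at chr3R:23348032-23348057. *PolE2* lies at chr3L:5897386-5897411, *RfC4* at chr3L:4136044-4136069, and the 2 windows of *RnrL* at chr2L:10327925-10327950 and chr2L:10327894-10327919.
Orc5: agggaataaTTTGGCGCcatttcaat
Mcm2: agcaaacatTTTCCCGCgcattttcg
Mcm5: gtaattttgGCGGCAAAatattcgca
Mcm6: cagaaaaagGCGCCAAAaccgagcaa
Sld5: ccaaaatttGCGCCAAAatctgcaaa
Psf1: gacgaacatTTTGGCGCgaatccatc
Prim2: gtagtttgcGCGCCAAAacaacaaac
PolE1: ttgaaattgGCGCCAAAcgtgttact
PolE2: ctaatttgcGCGCGAAAaaactttta
RfC4: ccgttgtgtTTTGGCGCccaagaaac
RnrL, first: tgactttaaTTTGGCGCctttttgtg
RnrL, second: aacaatcaaTTTGCCGCctcttgtga

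The letters TTTGGCGC, or GCGCCAAA where the match is on the other strand, recur in 8 of these 12 windows. Upstream sequence of 2 genes is shown because it carries the DRE, the site of Dref, with the matches in capitals. The 200 bases before the start of *PolA1*, the catalytic subunit of polymerase alpha (chr3R:21671751-21671950, minus strand), hold 3 DREs and no E2F match, and the 100 bases before the start of the GINS gene *Psf1* (chr3L:1247678-1247777, minus strand) hold 1 DRE and 1 E2F match.
PolA1: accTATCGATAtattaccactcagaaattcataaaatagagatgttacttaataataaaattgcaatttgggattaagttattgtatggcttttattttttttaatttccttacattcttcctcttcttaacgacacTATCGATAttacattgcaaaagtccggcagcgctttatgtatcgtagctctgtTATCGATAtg
Psf1: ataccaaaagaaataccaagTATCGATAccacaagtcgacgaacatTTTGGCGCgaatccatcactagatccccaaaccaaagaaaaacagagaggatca

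**Figure D1:**
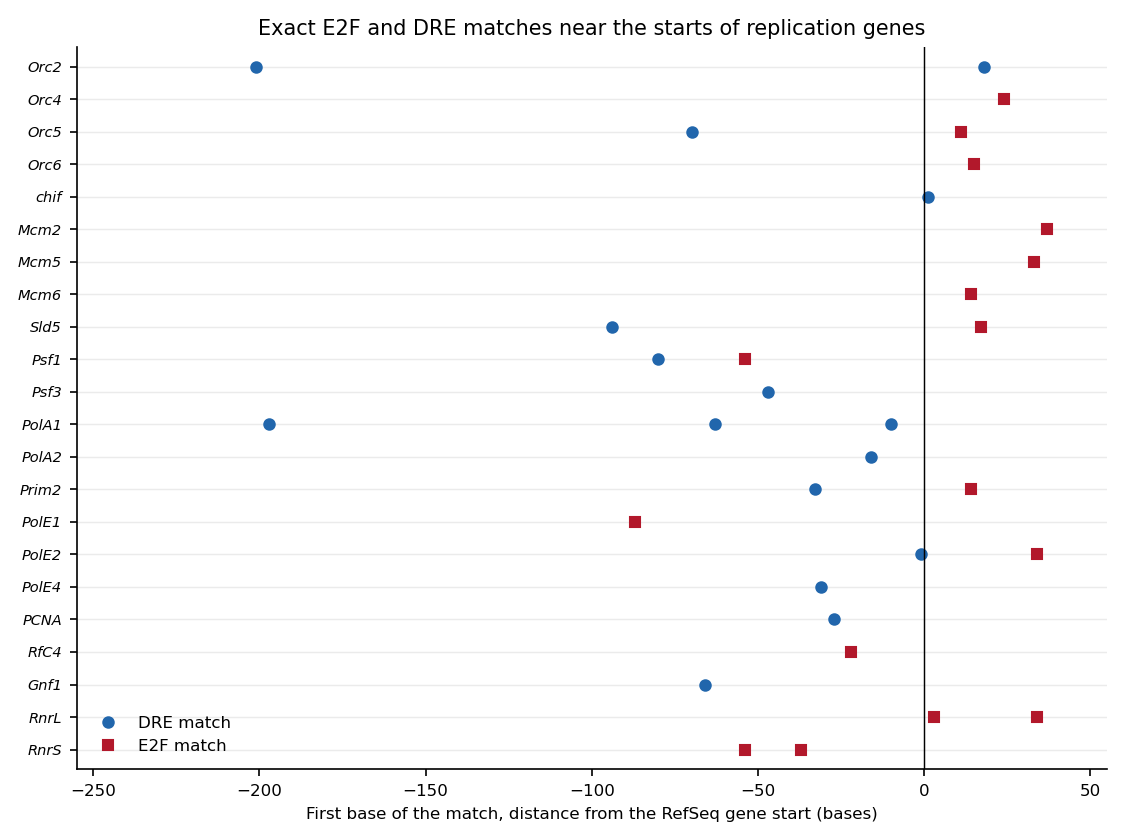
Positions of E2F and DRE matches from 250 bases before to 50 bases after the annotated start in the members that hold one, with distance from the start in bases on the horizontal axis and one gene per row. Of the 16 E2F matches, 11 lie between positions 3 and 37 after the start.

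Depth differed between the 2 experiments and limits what low levels can show. The reads counted on genes ran from 1900774 to 7512920 per library in wild-type wings and from 11201219 to 16332737 in transgenic wings. Levels are given as CPM, counts scaled to a common TMM library size. A floor of 3 counts corresponds on this scale to 0.328 to 1.41 CPM in wild-type and 0.146 to 0.389 CPM in transgenic libraries, and it covers counting error only. In edgeR's quasi-likelihood test, a gene was called when its log2 fold change was past 1 in size and its Benjamini-Hochberg adjusted p, taken over all genes tested, was under 0.05. In whole wings, fewer cells that express a gene and less RNA per cell cannot be told apart. The wing markers *vg*, *nub*, *rn*, *sd* and *Dll* were detected in every library, with a summed level of 618 to 1726 CPM in wild-type and 1537 to 2672 CPM in transgenic wings.

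Several libraries stood apart by gene lists taken as markers of other tissues. At 6 h, the larval serum protein and other fat body genes summed to 126 and 526 CPM in replicates 1 and 2, the neuronal genes to 162 and 355 CPM, and a list of tracheal genes, which includes the chitin deacetylases *serp* and *verm*, to 20244 and 5717 CPM. The replication genes summed to 1183 and 755 CPM in the same 2 libraries. At L3, the male-specific RNAs *roX1* and *roX2* summed to 197 CPM in replicate 1 and 9 CPM in replicate 2, although both are labelled female, and to 106 and 49.5 CPM at 18 h. The fat body genes also differed between the CycD_E2F libraries at 24 h, at 350 and 47.6 CPM, and a list of myoblast and muscle genes between the wild-type libraries at 44 h, at 296 and 1047 CPM. At 44 h, the tracheal list summed to 155 and 171 CPM in CycD_E2F wings, 274 and 768 CPM in E2F wings, and 5318 and 6781 CPM in Ctr wings, and the neuronal list to 343 and 376 CPM in CycD_E2F wings, 498 and 604 CPM in E2F wings, and 824 and 1030 CPM in Ctr wings. Of the 3 tracheal genes tested, 2 were called lower in each transgenic genotype than in Ctr wings at 44 h. The least changed gene had a log2 fold change of -0.52 for CycD_E2F and -0.74 for E2F, so these sums follow only part of the list. The paper reports lower expression of cuticle formation genes in such wings, and whether the sums reflect tracheal tissue was not tested. The part of all these differences in the replication gene values was not tested.

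Across the wild-type stages the summed level of the 37 genes was high at L3, lower at 6 h, high again at 18 h and low from 24 h on. It was 1940 and 1825 CPM at L3, 1183 and 755 CPM at 6 h, 1460 and 1743 CPM at 18 h, 420 and 459 CPM at 24 h, 237 and 273 CPM at 36 h, and 312 and 291 CPM at 44 h. The mean was highest at L3 for 32 genes, at 18 h for *PCNA*, *RfC3*, *RpA-70* and *RnrL*, and at 44 h for *chif*. It was lowest at 36 h for 28 genes and at 44 h for 7. The highest stage mean was 1.31 times the lowest for *chif* and a median of 15.1 times over the genes for which the ratio could be taken. Per kilobase of exon, the level at L3 ran from 3.04 CPM per kb for *PolE1*, the catalytic subunit of polymerase epsilon, over a median of 16.1 to 194 CPM per kb for *PCNA*.

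**Figure D2:**
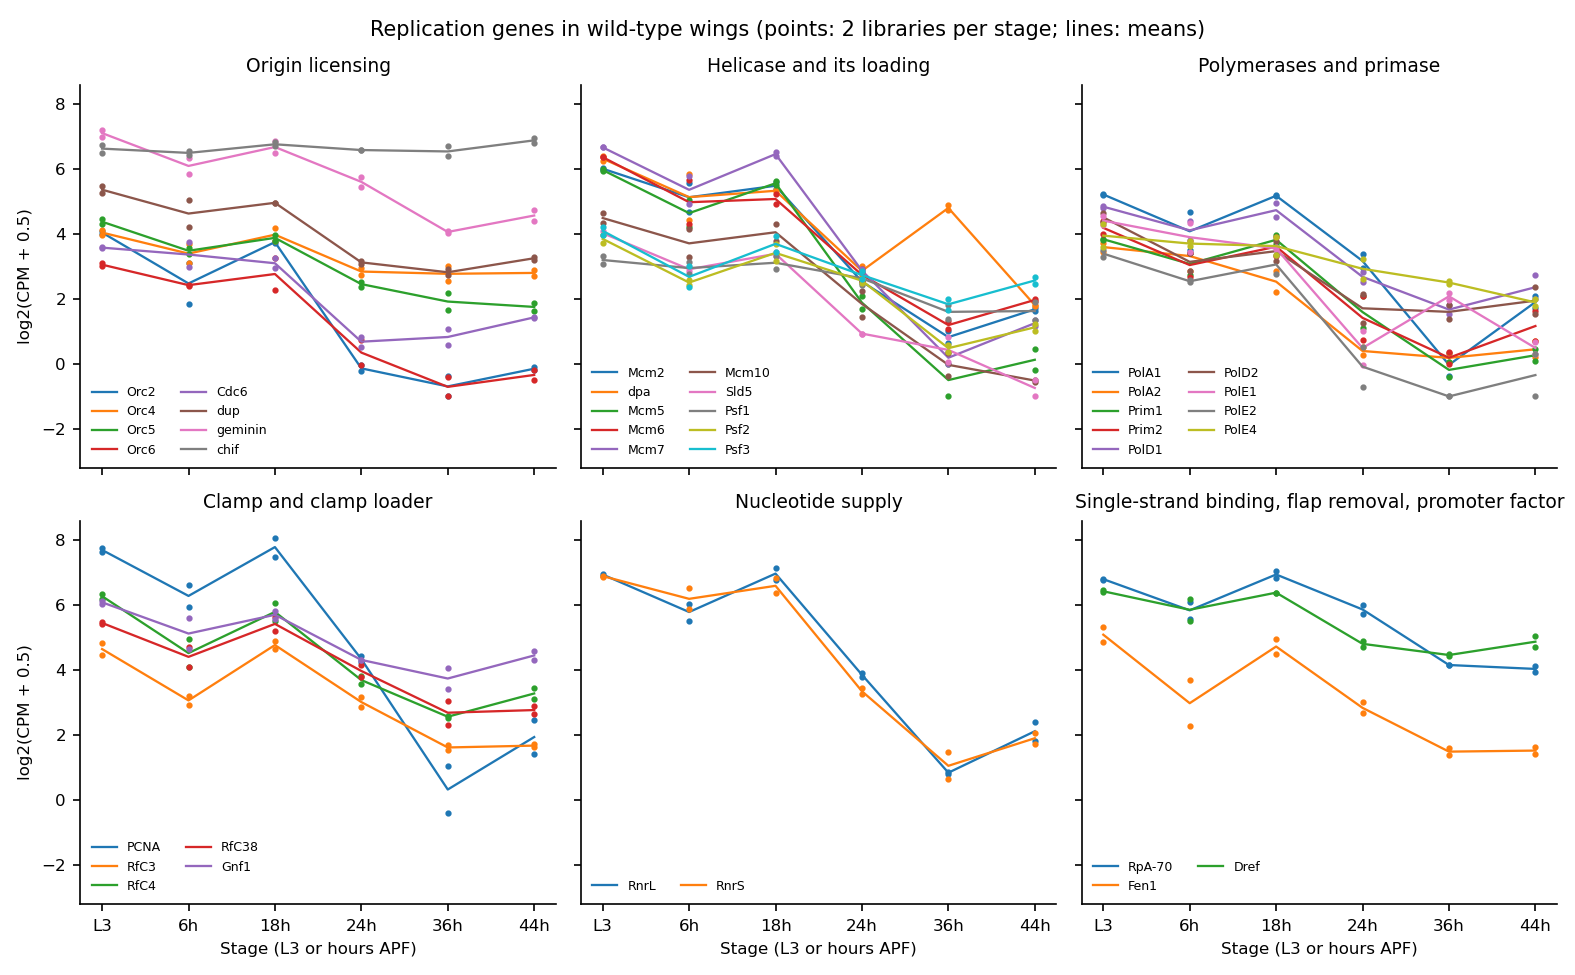
Levels of the 37 replication genes at the 6 wild-type stages by role, as log2 of CPM plus 0.5, with one line per gene through the mean of each stage and one point per library. The lines drop between 18 h and 24 h, to between 3.18% of the 18 h level for *Orc2* and 88.3% for *chif*.

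The fall at the start of metamorphosis was moderate. Between 6 h and L3, 17 of the 37 genes fell, against 15.1% of all 8669 genes tested, and the median log2 fold change was -0.94, with 0.00 over all genes. The largest fall was that of the flap endonuclease *Fen1*, which had 12.5 and 4.31 CPM at 6 h and 39.3 and 28.7 CPM at L3 (log2 fold change -1.97, standard error 0.37, adjusted p = 0.00093). Among the loader subunits, *RfC4* fell by 1.69 (standard error 0.28, adjusted p = 0.00039), and *PCNA* fell by 1.38 (standard error 0.34, adjusted p = 0.00505). The number of called genes rested on single libraries: it was 27 without replicate 1 of 6 h, 10 without replicate 2 of 6 h, 11 without replicate 1 of L3, the library with the higher *roX* level, and 16 without replicate 2 of L3. When libraries were scaled by their totals in place of TMM it was 32.

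Some of the genes then returned to a higher level at 18 h. Against 6 h, 9 genes rose, beside 14.9% of all genes, with a median of 0.51 over the 37 genes and 0.02 over all genes. They included *RfC3*, a subunit of the clamp loader, with 24.4 and 29.5 CPM at 18 h against 8.77 and 7.09 CPM at 6 h (log2 fold change 1.74, standard error 0.25, adjusted p = 0.00012). *PCNA* had 180 and 270 CPM at 18 h against 97.8 and 61.3 CPM at 6 h (log2 fold change 1.49, standard error 0.34, adjusted p = 0.00326). *RnrL*, the large subunit of ribonucleotide reductase, rose by 1.17, whereas the value of the small subunit *RnrS* was 0.38 (adjusted p = 0.248). Without replicate 1 of 6 h 14 genes rose, without replicate 2 of 6 h 3 rose and 1 fell, and without replicate 2 of 18 h 3 rose, while scaling by library totals gave 19. Set directly against L3, 4 genes were lower at 18 h, beside 8.96% of all genes, and with any one of the 4 libraries left out the number was 0 or 1. DESeq2 called 1.

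The steepest change in the wild-type course lay between 18 h and 24 h, when 32 of the 37 genes fell and 5.1% of all genes did. The median log2 fold change was -2.19, beside 0.03 over all genes, and in all 37 genes both 24 h libraries were below both 18 h libraries, as in 29.4% of all genes. At 24 h the genes stood at a median of 22.4% of their 18 h level. Compared with 6 h, the earlier low point, 24 genes were lower at 24 h, beside 15.5% of all genes, with a median of -1.64, and the number was 20 without replicate 1 and 25 without replicate 2 of 6 h. When only the 24 h library with 1900774 counts was kept, without replicate 1 of that stage, 16 genes fell between 18 h and 24 h.

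Among the licensing genes, 7 of 8 fell between 18 h and 24 h. *Orc2*, a subunit of the origin recognition complex, had 0.352 and 0.471 CPM at 24 h against 12.6 and 13.3 CPM at 18 h, the largest fall of the 37 genes (log2 fold change -5.01, standard error 0.57, adjusted p = 0.00021). Both 24 h values rest on 3 counts or fewer, so that the size of the fall is less certain than its direction. The other extreme was *chif*, the Dbf4-like activator of the Cdc7 kinase, with 95 and 95.7 CPM at 24 h against 113 and 103 CPM at 18 h (log2 fold change -0.18, standard error 0.19, adjusted p = 0.562). Its exons overlap those of a gene on the same strand over 19.5% of their length. Other subunits of the origin recognition complex kept more of their RNA: *Orc4* had 7.27 and 6.13 CPM at 24 h against 13.3 and 17.5 CPM at 18 h. The mRNA of *geminin*, the licensing inhibitor, was at 43.4 and 53.3 CPM at 24 h against 89.2 and 116 CPM at 18 h, and that of *dup*, the fly Cdt1, at 7.98 and 8.48 CPM against 30.7 and 30.5 CPM.

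Of the 10 helicase genes, 7 fell between 18 h and 24 h, among them all 5 measured subunits of the Mcm2-7 ring, and *Mcm5* fell the most, with 2.7 and 3.77 CPM at 24 h against 44.6 and 48.8 CPM at 18 h (log2 fold change -3.95, standard error 0.37, adjusted p = 6.1e-05). *Mcm7* had 7.04 and 6.6 CPM at 24 h against 83.8 and 91.1 CPM at 18 h, with exons that overlap an antisense RNA over 81.7% of their length. Among the GINS genes, *Sld5* fell, whereas *Psf1*, *Psf2* and *Psf3* did not pass the test. *Psf1* had 4.93 and 6.6 CPM at 24 h against 7 and 9.5 CPM at 18 h (log2 fold change -0.56, standard error 0.34, adjusted p = 0.302). *Psf3* shares 34.9% of its exon length with an overlapping gene.

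Of the 9 polymerase genes, 8 fell between 18 h and 24 h. *PolE2*, the second subunit of polymerase epsilon, had 0.117 and 0.943 CPM at 24 h against 6.29 and 9.76 CPM at 18 h (log2 fold change -4.61, standard error 0.77, adjusted p = 0.00284), again near the floor. Its 24 h level rests on 3 counts in all, which gives 0.0382 times the 18 h level, with an exact 95% counting interval of 0.00773 to 0.115. *PolE4*, a small accessory subunit of the same enzyme, had 5.63 and 8.95 CPM at 24 h against 9.61 and 14.6 CPM at 18 h and did not pass the test (log2 fold change -0.80, standard error 0.34, adjusted p = 0.14). *PolA1* had 7.27 and 9.9 CPM at 24 h against 35.4 and 35.9 CPM at 18 h. Subunits of polymerase epsilon therefore lay at both ends of the range of the polymerase genes.

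All 5 clamp and loader genes fell. *PCNA*, the most abundant of the list per kilobase, had 18.4 and 21.2 CPM at 24 h against 180 and 270 CPM at 18 h (log2 fold change -3.52, standard error 0.37, adjusted p = 0.00013). *Gnf1*, the large subunit of replication factor C, changed the least of this group, with 19.5 and 19.3 CPM at 24 h against 56.1 and 47.5 CPM at 18 h (log2 fold change -1.42, standard error 0.30, adjusted p = 0.00857). The fitted fall of the clamp gene was larger than that of each loader gene, a difference that was not tested.

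Single-strand binding, nucleotide supply, flap removal and the promoter factor also fell. *RpA-70*, the large subunit of the single-strand binding protein, had 53 and 63.2 CPM at 24 h against 114 and 132 CPM at 18 h (log2 fold change -1.09, standard error 0.21, adjusted p = 0.00545). *RnrL* had 13.4 and 14.6 CPM at 24 h against 110 and 142 CPM at 18 h (log2 fold change -3.18, standard error 0.26, adjusted p = 3.1e-05), and *RnrS* had 9.03 and 10.4 CPM against 81.9 and 113 CPM (log2 fold change -3.35, standard error 0.30, adjusted p = 4.4e-05). Both subunits of ribonucleotide reductase fell. *Fen1* fell by 2.02 (standard error 0.39, adjusted p = 0.0051). *Dref* had 29.3 and 25.9 CPM at 24 h against 83 and 83.2 CPM at 18 h and fell by 1.58 (standard error 0.23, adjusted p = 0.00122).

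The decline went on between 24 h and 36 h for 19 genes, beside 11.1% of all genes, while 2 genes rose, beside 15.3% of all genes. The median log2 fold change was -1.39, with -0.07 over all genes. *PCNA* had 1.59 and 0.252 CPM at 36 h against 18.4 and 21.2 CPM at 24 h (log2 fold change -4.40, standard error 0.57, adjusted p = 9.3e-05), *PolA1* had 0.266 and 0.755 CPM against 7.27 and 9.9 CPM (log2 fold change -3.92, standard error 0.61, adjusted p = 0.00036), and *Mcm5* had 0 and 0.504 CPM against 2.7 and 3.77 CPM (log2 fold change -3.42, standard error 0.79, adjusted p = 0.00503). These genes were at or near the 3-count floor in at least one 36 h library, and *Mcm5*, with 2 counts in all at 36 h, was at 0.0888 times its 24 h level, with an exact 95% counting interval of 0.0103 to 0.349. *Dref* with 22 and 21.2 CPM, *Gnf1* with 10.1 and 16.4 CPM and *RpA-70* with 17.3 and 17.4 CPM at 36 h were above it in both. Of these, *RpA-70* passed the test against 24 h (log2 fold change -1.74, standard error 0.23, adjusted p = 0.00011), and *Dref* (-0.37, adjusted p = 0.255) and *Gnf1* (-0.55, adjusted p = 0.204) did not. Without replicate 1 of 36 h the numbers were 12 lower and 1 higher.

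The 2 genes that rose were *dpa*, the Mcm4 subunit of the ring, and *PolE1*. *dpa* had 28.9 and 25.9 CPM at 36 h against 7.51 and 6.13 CPM at 24 h (log2 fold change 1.96, standard error 0.39, adjusted p = 0.00191), while the other 4 measured genes of the ring were lower, *Mcm6*, which fell by 1.70, the least and *Mcm5* the most. Both 36 h libraries showed it, and at 44 h *dpa* was back at 3.04 and 2.97 CPM. *PolE1* had 3.45 and 4.03 CPM at 36 h against 1.53 and 0.471 CPM at 24 h (log2 fold change 1.55, standard error 0.50, adjusted p = 0.0293) and 1.09 and 0.743 CPM at 44 h. The call of *PolE1* was lost when libraries were scaled by their totals, without replicate 2 of 24 h and without either 36 h library. That of *dpa* held in all alternatives, with log2 fold changes of 1.62 to 2.16. Within 2000 bases of these genes, 2 tested genes near *dpa* and 3 near *PolE1* did not rise past the same limits. *Sec13*, near *PolE1*, missed the fold limit only, with a rise by 0.96 (standard error 0.18, adjusted p = 0.00147). The values of *pnt* and *ATPsynCF6*, also near *PolE1*, were -0.25 and -0.20, and those of *didum* and *CG1620*, near *dpa*, were -0.07 and -0.53. Whether the rise of *PolE1* is separate from that of *Sec13* was not tested.

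**Figure D3:**
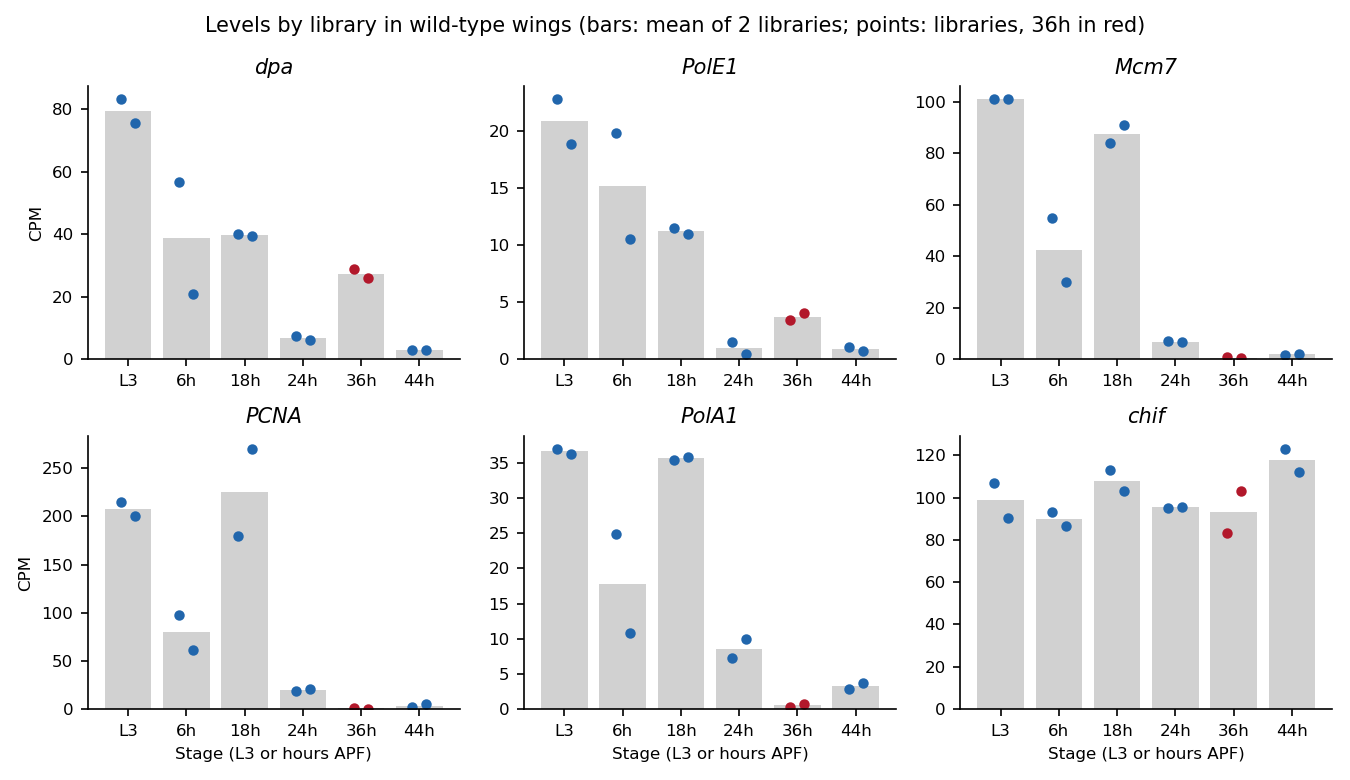
CPM in each wild-type library by stage for *dpa*, *PolE1* and *chif*, whose courses depart from the rest, and for *Mcm7*, *PCNA* and *PolA1*, with bars for the mean of 2 libraries and points for the libraries. *dpa* and *PolE1* are higher at 36 h, at 28.9 and 25.9 CPM and at 3.45 and 4.03 CPM, than at 24 h and 44 h, and *chif* lies between 83.1 and 123 CPM at all stages.

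Between 36 h and 44 h few genes passed the test, although the median log2 fold change was above 0 in most roles. It was 0.49 for origin licensing, 0.85 for the helicase, 0.82 for the polymerases, 0.69 for the clamp and loader and 1.28 for nucleotide supply. The single genes *Dref*, *Fen1* and *RpA-70* had 0.42, 0.04 and -0.12. *PCNA*, *PolA1* and *RnrL* rose, 3 of 37 beside 10.8% of all genes, and *dpa*, *PolE1* and *Sld5* fell, 3 of 37 beside 9.51%. *PolA1* had 2.82 and 3.72 CPM at 44 h against 0.266 and 0.755 CPM at 36 h, *PCNA* had 2.17 and 5.02 CPM against 1.59 and 0.252 CPM (log2 fold change 1.98, standard error 0.68, adjusted p = 0.0463), and *RnrL* had 3.04 and 4.83 CPM against 1.33 and 1.26 CPM (log2 fold change 1.60, standard error 0.43, adjusted p = 0.0147). These are still low levels, and over the list the median at 44 h was 10.4% of the L3 level. *dpa* fell by 3.18 (standard error 0.42, adjusted p = 0.00012), *PolE1* by 2.02 (standard error 0.53, adjusted p = 0.0133) and *Sld5* by 2.89 (standard error 0.92, adjusted p = 0.0372). *Sld5* averaged 0.109 ± 0.154 CPM at 44 h against 0.895 ± 0.515 CPM at 36 h (SD, n = 2 each). These levels are near the 3-count floor at 36 h and below it at 44 h, so the size of its fall is uncertain. Without replicate 1 of 36 h 1 gene rose and 3 fell, without replicate 2 of 36 h 1 rose and 1 fell, and without replicate 2 of 44 h, the library with the higher muscle gene level, 1 gene fell. The call of *PCNA* was also lost with scaling by library totals (adjusted p = 0.0775) and with the replicate block (adjusted p = 0.0545), and that of *Sld5* in DESeq2 (adjusted p = 0.124).

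The transgenic wings address whether the replication genes remain on past the normal time of cell cycle exit. E2F activity was kept up in E2F wings, and E2F and Cyclin D activity in CycD_E2F wings. The paper describes exit as delayed in E2F wings, by an extra cycle after the earlier stage, and as bypassed in CycD_E2F wings. At the later stage it describes E2F wings as postmitotic and CycD_E2F wings as still cycling. The part of cycling in the differences between genotypes was not tested. The transgene-borne genes were measured first. *E2f1* averaged 1123 ± 304 CPM in CycD_E2F wings, 3767 ± 28.5 CPM in E2F wings and 453 ± 28.9 CPM in Ctr wings at 24 h, and 1783 ± 273 CPM in CycD_E2F wings, 4121 ± 421 CPM in E2F wings and 118 ± 19.9 CPM in Ctr wings at 44 h (SD, n = 2 each). *Dp* averaged 141 ± 17.9 CPM in CycD_E2F wings, 768 ± 58.2 CPM in E2F wings and 79.5 ± 0.291 CPM in Ctr wings at 24 h. The 2 transgenic genotypes thus differed in *E2f1* and *Dp* RNA as well as in CycD and Cdk4. *CycD* averaged 736 ± 199 CPM in CycD_E2F wings, 48.3 ± 2.71 CPM in E2F wings and 59.8 ± 1.4 CPM in Ctr wings at 24 h, and *Cdk4* averaged 164 ± 47.3 CPM in CycD_E2F wings, 27.6 ± 3.86 CPM in E2F wings and 41 ± 1.71 CPM in Ctr wings. These counts do not separate transgene from endogenous transcripts.

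At 24 h, 36 of the 37 replication genes rose in CycD_E2F wings against Ctr wings, beside 5.67% of all 9636 genes tested, and the same number rose in E2F wings, beside 9.88%. The median log2 fold change was 2.95 for CycD_E2F and 3.69 for E2F. Over all genes it was 0.01 for CycD_E2F and -0.01 for E2F. The summed level was 1867 and 1548 CPM in CycD_E2F wings, 2447 and 2396 CPM in E2F wings, and 357 and 338 CPM in Ctr wings. Both comparisons use the same 2 Ctr libraries. The exception in both was *chif*, with 143 and 136 CPM in CycD_E2F wings, 128 and 127 CPM in E2F wings and 139 and 132 CPM in Ctr wings, a log2 fold change of 0.05 for CycD_E2F (standard error 0.12, adjusted p = 0.843) and -0.09 for E2F (standard error 0.12, adjusted p = 0.664).

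**Figure D4:**
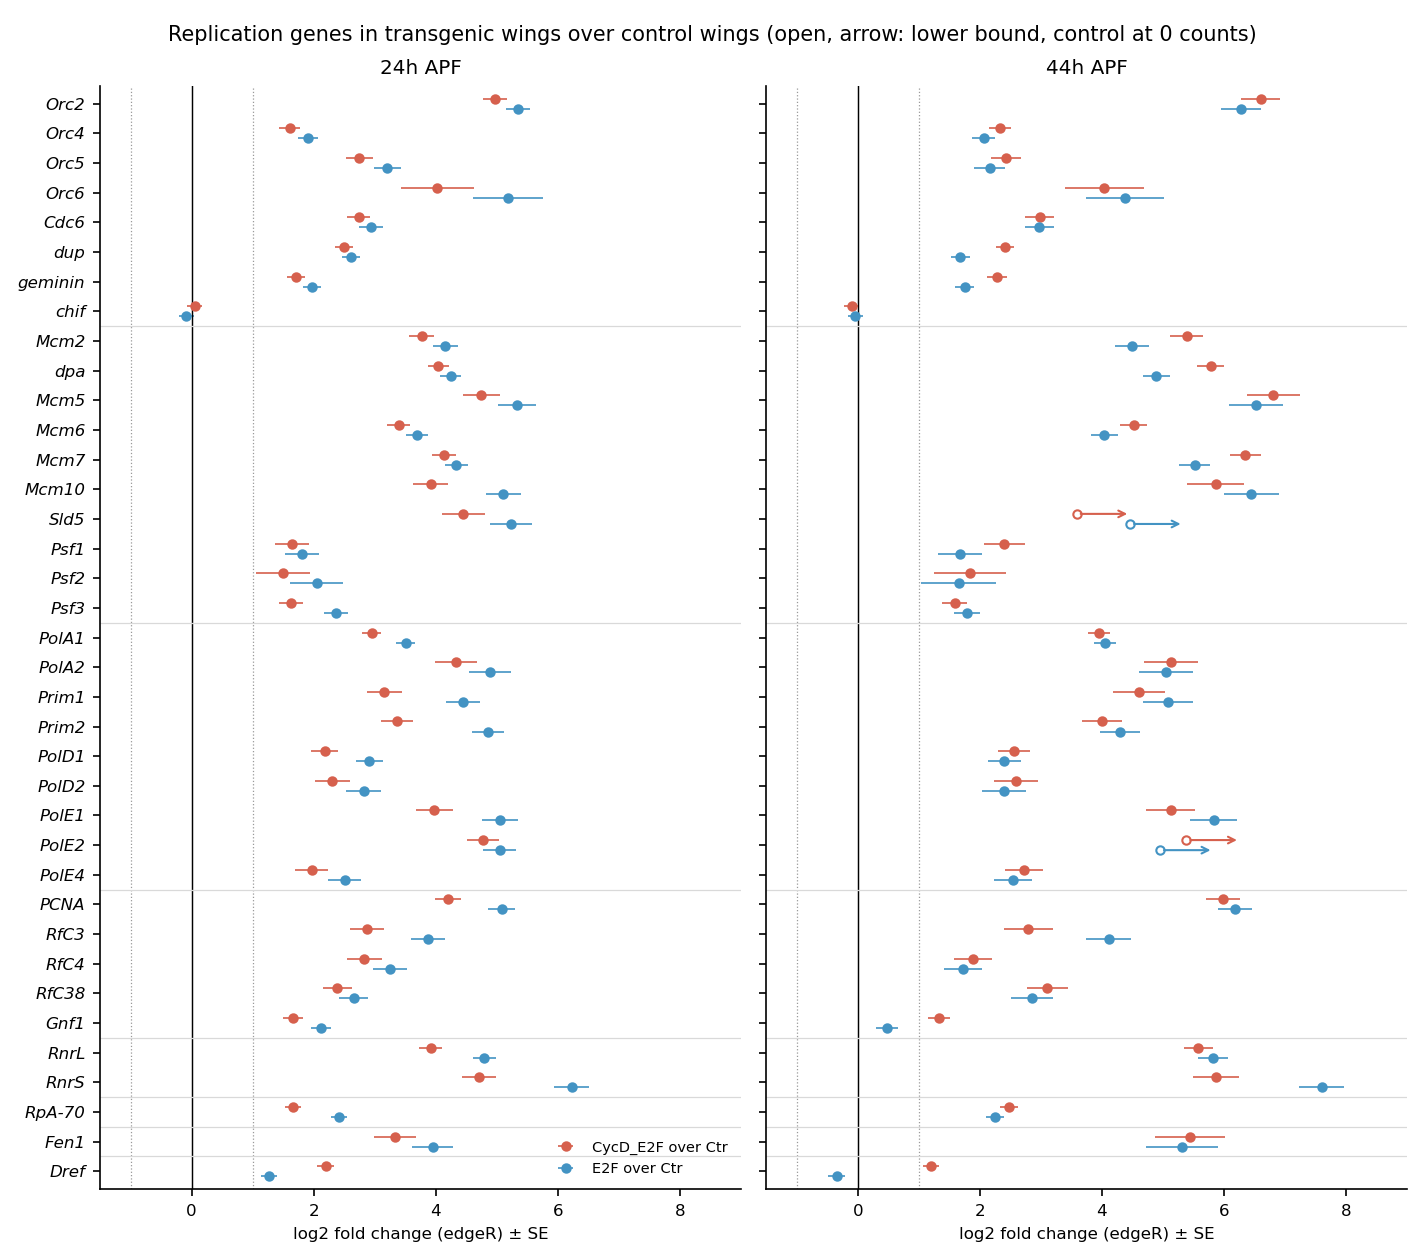
Log2 fold changes of the 37 genes by role, for CycD_E2F and E2F wings against Ctr wings at 24 h and 44 h, with standard errors as bars and arrows at the lower bounds of genes without counts in Ctr. All genes but *chif* lie above 1 at 24 h, and *Dref* and *Gnf1* fall below 1 in E2F wings at 44 h, at -0.35 and 0.48.

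Among the licensing genes at 24 h, *Orc2* changed the most. It had 23.4 and 21.4 CPM in CycD_E2F wings, 28.4 and 29.4 CPM in E2F wings, and 0.794 and 0.636 CPM in Ctr wings (log2 fold change 4.97 for CycD_E2F, standard error 0.20, adjusted p = 1.4e-07, and 5.34 for E2F, standard error 0.20, adjusted p = 4.3e-08). Of the helicase genes all 10 rose in both genotypes, and *Mcm5* had 60.2 and 41.2 CPM in CycD_E2F wings, 83 and 69 CPM in E2F wings, and 2.78 and 1.16 CPM in Ctr wings (log2 fold change 4.75 for CycD_E2F and 5.33 for E2F). The GINS genes *Psf1* and *Psf2* were at the low end, *Psf1* with 6.25 and 5.49 CPM in CycD_E2F wings, 6.33 and 6.78 CPM in E2F wings, and 1.91 and 1.85 CPM in Ctr wings (log2 fold change 1.80 for E2F, standard error 0.28, adjusted p = 0.00063). *Psf2* was called in CycD_E2F wings close to the limit (log2 fold change 1.5, standard error 0.44, adjusted p = 0.0423), and this call was lost in 4 of 10 alternatives, among them RLE scaling, with adjusted p up to 0.282.

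All 9 polymerase genes and all 5 clamp and loader genes rose in both genotypes at 24 h. *PolE1* had 24.9 and 17.9 CPM in CycD_E2F wings, 46.3 and 43.9 CPM in E2F wings, and 1.67 and 1.1 CPM in Ctr wings (log2 fold change 5.05 for E2F, standard error 0.30, adjusted p = 2.8e-07). *PCNA* had 137 and 114 CPM in CycD_E2F wings, 234 and 228 CPM in E2F wings, and 8.26 and 5.49 CPM in Ctr wings (log2 fold change 4.20 for CycD_E2F, standard error 0.21, adjusted p = 2.4e-07, and 5.08 for E2F, standard error 0.22, adjusted p = 5e-08). *Gnf1* was the least changed of the loader genes, with log2 fold changes of 1.66 for CycD_E2F (standard error 0.16, adjusted p = 2.6e-05) and 2.11 for E2F (standard error 0.16, adjusted p = 2.3e-06).

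The largest change of the list in E2F wings was that of *RnrS*. It had 104 and 76.6 CPM in CycD_E2F wings, 264 and 252 CPM in E2F wings, and 4.68 and 2.37 CPM in Ctr wings (log2 fold change 4.71 for CycD_E2F, standard error 0.28, adjusted p = 4.6e-07, and 6.23 for E2F, standard error 0.29, adjusted p = 5.2e-08). *RnrL*, whose product forms the same enzyme, had 99.4 and 91.7 CPM in CycD_E2F wings, 167 and 185 CPM in E2F wings, and 5.24 and 7.28 CPM in Ctr wings. *Dref* showed the reverse order of the genotypes, with 135 and 127 CPM in CycD_E2F wings, 69.4 and 68.8 CPM in E2F wings, and 28.3 and 29 CPM in Ctr wings (log2 fold change 2.19 for CycD_E2F, standard error 0.14, adjusted p = 7e-07, and 1.27 for E2F, standard error 0.14, adjusted p = 3.2e-05).

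Grouped by the letters in their promoters, the 14 genes with an E2F match had a median log2 fold change of 3.84 for CycD_E2F and 4.83 for E2F against Ctr at 24 h, and the 23 genes without one had 2.49 for CycD_E2F and 2.91 for E2F. At 44 h the medians were 4.82 for CycD_E2F and 4.44 for E2F with a match, and 2.80 for CycD_E2F and 2.86 for E2F without. In wild-type wings between 18 h and 24 h they were -2.73 with a match and -1.91 without. The ranges of the 2 groups of genes overlapped in these comparisons: at 24 h the values for E2F ran from 1.80 to 6.23 with a match and from -0.09 to 5.34 without. *Orc2* and *PCNA*, which lack these letters in the window, had 5.34 and 5.08 for E2F, and *Psf1*, with a match, had 1.80. The paper states that its *pcna* reporter includes known E2F binding sites, so genes without an exact match can still hold such sites. No test was made of this grouping.

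CycD_E2F wings were also set against E2F wings at 24 h. There 6 genes were lower in CycD_E2F wings, beside 3.95% of all genes, with a median of -0.54 over the list and 0.00 over all genes. *Prim2*, the large subunit of primase, had 21.4 and 16.5 CPM in CycD_E2F wings against 47.4 and 59.1 CPM in E2F wings (log2 fold change -1.49, standard error 0.20, adjusted p = 0.00092). *RnrS* fell by 1.51 (standard error 0.22, adjusted p = 0.00151), *Mcm10* by 1.19 (standard error 0.22, adjusted p = 0.00516) and *RfC3* by 1.01 (standard error 0.23, adjusted p = 0.0153), and the other 2 were *Prim1* and *PolE1*. The value of *Dref* was 0.92 (standard error 0.13, adjusted p = 0.00118), which is within the fold limit. Leaving out replicate 2 of CycD_E2F, or replicate 1 of E2F, left 3 genes, and without replicate 1 of CycD_E2F, the library with the higher fat body gene level, the number was 8.

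At 44 h, when Ctr wings had still less of these transcripts, 36 of the 37 genes were higher in CycD_E2F wings, beside 15.1% of all genes, and 34 in E2F wings, beside 12.6%. The summed level was 1176 and 1260 CPM in CycD_E2F wings, 1135 and 1102 CPM in E2F wings, and 258 and 264 CPM in Ctr wings. The median log2 fold change was 3.95 for CycD_E2F, and 3.58 with the 2 genes that had no counts in Ctr set at their lower bound, and it was 4.05 for E2F. Over all genes it was -0.06 for CycD_E2F and -0.07 for E2F. Again both comparisons share the Ctr libraries.

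The 2 genes without counts in Ctr wings at 44 h were *Sld5* and *PolE2*. *Sld5* had 4.23 and 4.81 CPM in CycD_E2F wings and 9.16 and 7.49 CPM in E2F wings, at least 12-fold higher in CycD_E2F and 22-fold higher in E2F wings than a floor of 3 counts per Ctr library. *PolE2* had 13.9 and 17.6 CPM in CycD_E2F wings and 12 and 11.3 CPM in E2F wings, at least 41.7-fold higher in CycD_E2F and 30.9-fold higher in E2F wings than that floor. *Mcm7* and *dpa* showed how far the ring genes stood above Ctr. *Mcm7* had 89.1 and 87.3 CPM in CycD_E2F wings, 51 and 48.1 CPM in E2F wings, and 0.733 and 1.43 CPM in Ctr wings, and *dpa* had 78.8 and 95.2 CPM in CycD_E2F wings, 44.1 and 49.9 CPM in E2F wings, and 1.83 and 1.3 CPM in Ctr wings. Of the GINS genes, *Psf2* was called in E2F wings at the limit of the test (log2 fold change 1.66, standard error 0.61, adjusted p = 0.05), with 1.2 and 1.54 CPM in CycD_E2F wings, 0.976 and 1.46 CPM in E2F wings, and 0.489 and 0.26 CPM in Ctr wings, and this call was lost in 8 of 10 alternatives.

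*PCNA*, *Orc2* and both reductase genes stayed among the most changed at 44 h. *PCNA* had 66.9 and 70.5 CPM in CycD_E2F wings, 83 and 74.3 CPM in E2F wings, and 0.733 and 1.43 CPM in Ctr wings (log2 fold change 5.99 for CycD_E2F, standard error 0.28, adjusted p = 7.3e-08, and 6.19 for E2F, standard error 0.28, adjusted p = 1.1e-07). *Orc2* had 12.4 and 13.7 CPM in CycD_E2F wings, 10.7 and 10.2 CPM in E2F wings, and 0.122 and 0.13 CPM in Ctr wings. With 1 count in each Ctr library, the ratio to Ctr was 103 for CycD_E2F, with an exact 95% counting interval of 28.4 to 855, and 83.2 for E2F, with an interval of 22.8 to 691. *RnrS* had 37 and 44.8 CPM in CycD_E2F wings, 132 and 141 CPM in E2F wings, and 0.489 and 0.909 CPM in Ctr wings (log2 fold change 5.87 for CycD_E2F and 7.60 for E2F). Levels in Ctr wings were at a few reads per library, so these folds are less precise than the levels in the other wings.

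The 3 genes that did not pass in E2F wings at 44 h were *chif*, *Gnf1* and *Dref*. *Gnf1* had 25.2 and 22.4 CPM in CycD_E2F wings, 14.6 and 11.8 CPM in E2F wings, and 9.28 and 9.61 CPM in Ctr wings (log2 fold change 1.33 for CycD_E2F, standard error 0.18, adjusted p = 7e-05, and 0.48 for E2F, standard error 0.18, adjusted p = 0.0523). *Dref* had 71 and 88.2 CPM in CycD_E2F wings, 25.5 and 28.9 CPM in E2F wings, and 35.8 and 33.4 CPM in Ctr wings (log2 fold change 1.20 for CycD_E2F, standard error 0.14, adjusted p = 2.3e-05, and -0.35 for E2F, standard error 0.14, adjusted p = 0.0669). On this scale both E2F libraries were below both Ctr libraries for *Dref*, whereas scaling by library totals gave a log2 fold change of 0.26 (adjusted p = 0.178), and both CycD_E2F libraries were above all others. *chif* had 131 and 127 CPM in CycD_E2F wings, 147 and 123 CPM in E2F wings, and 132 and 145 CPM in Ctr wings.

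**Figure D5:**
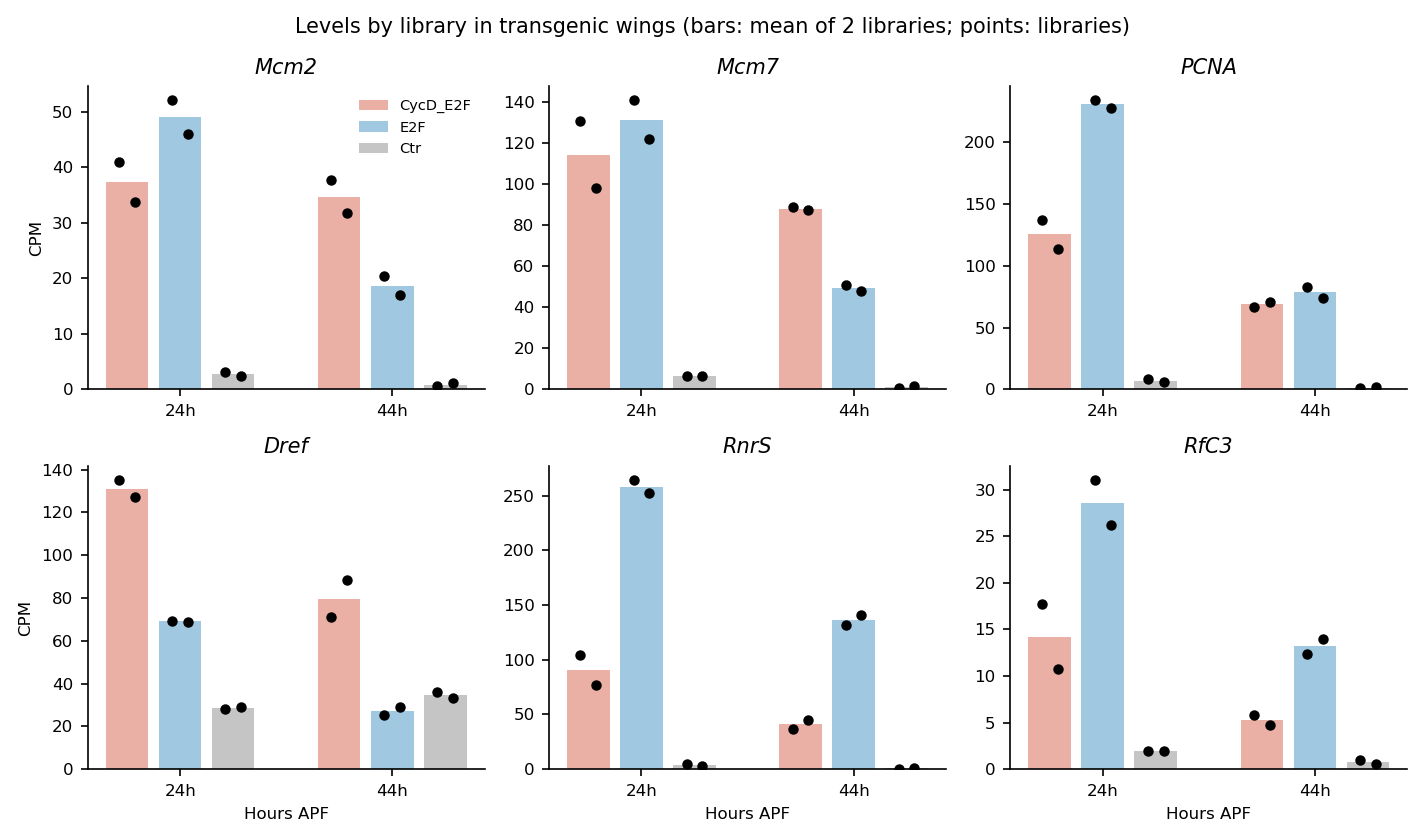
CPM of *Mcm2*, *Mcm7*, *PCNA*, *Dref*, *RnrS* and *RfC3* in CycD_E2F, E2F and Ctr wings, from left to right at 24 h and at 44 h, with bars for the mean of 2 libraries and points for the libraries. *RnrS* is lower in CycD_E2F than in E2F wings at both stages and *Dref* is higher, at 71 and 88.2 CPM against 25.5 and 28.9 CPM at 44 h.

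Set against E2F wings at 44 h, *Dref* was higher in CycD_E2F wings, 1 gene beside 4.72% of all genes (log2 fold change 1.55, standard error 0.14, adjusted p = 2.8e-05). *RnrS* fell by 1.74 (standard error 0.23, adjusted p = 0.00036) and *RfC3* by 1.31 (standard error 0.25, adjusted p = 0.00313), 2 genes beside 6.89% of all. *RfC3* had 5.83 and 4.75 CPM in CycD_E2F wings against 12.4 and 14 CPM in E2F wings. *RnrS* was lower in CycD_E2F wings at both stages in each of the 10 alternatives, whereas the call of *RfC3* was lost in 4 of 10 alternatives at 24 h and with scaling by library totals at 44 h (log2 fold change -0.94). The median over the list was 0.17, beside -0.07 over all genes, and *Mcm2* came close to the fold limit at 0.90 (standard error 0.17, adjusted p = 0.0033). Without replicate 1 of E2F at 44 h, 3 genes were higher and 2 lower, and with scaling by library totals 7 were higher and 1 lower.

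The 2 stages were also compared within each genotype. In CycD_E2F wings 4 of the 37 genes were lower at 44 h than at 24 h, close to the 11.6% of all genes that were, with a median of -0.46 over the list and -0.15 over all genes. In E2F wings 25 genes were lower, beside 15.6%, with a median of -1.22 over the list and -0.16 over all genes. In Ctr wings 19 were lower, beside 16.3%, with a median of -1.31 over the list and -0.03 over all genes. The 4 genes of CycD_E2F wings were *RfC3*, which fell by 1.42 (standard error 0.25, adjusted p = 0.00064), its partner in the loader *RfC38*, which fell by 1.17 (standard error 0.22, adjusted p = 0.00126), *RnrS*, which fell by 1.14 (standard error 0.22, adjusted p = 0.00153), and *Sld5*, which fell by 1.11 (standard error 0.25, adjusted p = 0.00478). In Ctr wings *PCNA* fell by 2.66 (standard error 0.32, adjusted p = 2.3e-05), with 0.733 and 1.43 CPM at 44 h against 8.26 and 5.49 CPM at 24 h. In E2F wings *Gnf1* fell by 2.13 (standard error 0.16, adjusted p = 8.7e-07) and *Dref* by 1.35 (standard error 0.14, adjusted p = 7.7e-06). Leaving out replicate 1 of CycD_E2F at 24 h, 2 genes fell in CycD_E2F wings, and scaling by library totals gave 7 there and 31 in Ctr wings. With the Ctr libraries fitted alone, 12 fell in Ctr wings.

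An interaction contrast of the transgenic fit, the effect at 44 h minus that at 24 h, tested whether an effect of genotype differed between the stages. For CycD_E2F against E2F, 5 genes had a higher value at 44 h, beside 2.82% of all genes, with a median of 0.71 over the list and -0.01 over all genes. They were *Mcm2* (difference 1.28, standard error 0.24, adjusted p = 0.0106), *dpa*, *Mcm7*, *Prim2* and *Gnf1* (difference 1.30, standard error 0.22, adjusted p = 0.00746). For CycD_E2F against Ctr, 9 genes had a larger effect at 44 h, beside 7.98%, among them *PCNA* (difference 1.79, standard error 0.38, adjusted p = 0.00536) and 5 genes of the Mcm ring. The effect is relative to Ctr, and *PCNA* was lower at 44 h than at 24 h in both genotypes. It averaged 68.7 against 125 CPM in CycD_E2F wings, and 1.08 against 6.87 CPM in Ctr wings. For E2F against Ctr, 2 genes had a larger effect at 44 h, beside 6.16%, and 3 had a smaller one, beside 7.5%, namely *Gnf1* (difference -1.63, standard error 0.24, adjusted p = 0.00097), *Dref* (difference -1.62, standard error 0.19, adjusted p = 0.00031) and *RfC4*. These numbers depended on the libraries and the scaling. Without replicate 1 of Ctr at 44 h the numbers were 14 larger for CycD_E2F against Ctr and 2 smaller for E2F against Ctr, and for CycD_E2F against E2F they were 1 and 3 without E2F replicate 1 and replicate 2 at 24 h, 2 without CycD_E2F replicate 2 at 24 h, and 3 without either CycD_E2F library at 44 h. Without E2F replicate 1 at 44 h, E2F against Ctr gave 1 larger and 2 smaller. Scaling by library totals gave 25 larger effects for CycD_E2F against Ctr, 20 for CycD_E2F against E2F, and 6 larger and 2 smaller for E2F against Ctr, where DESeq2 gave 5 larger and 3 smaller.

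Other replication genes came from a separate list of 19, also chosen with earlier results of these data known. The 15 that were tested moved in the same directions in most comparisons. Between 24 h and 18 h in wild-type wings 11 of the 15 fell, beside 5.1% of all genes, with a median of -1.82. In CycD_E2F wings 13 rose at 24 h, beside 5.67% of all genes, with a median of 2.98. In E2F wings 13 rose, beside 9.88%, with a median of 3.70. Among them, *Claspin*, a fork checkpoint adaptor, rose by 4.45 in CycD_E2F wings (adjusted p = 2.4e-07) and by 5.90 in E2F wings (adjusted p = 4.3e-08) at 24 h. *Ts*, thymidylate synthase, rose by 4.36 in CycD_E2F and by 5.32 in E2F wings, and *CDC45L*, the partner of the Mcm ring and GINS, by 2.98 in CycD_E2F and by 4.57 in E2F wings. At 44 h 13 genes were higher in each genotype, beside 15.1% of all genes in CycD_E2F and 12.6% in E2F wings, and 1 was lower.

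The gene that was lower was *Cdc7*, the kinase subunit that the *chif* product activates. It averaged 37.1 ± 0.806 CPM in CycD_E2F wings, 67.4 ± 28.4 CPM in E2F wings and 426 ± 66.8 CPM in Ctr wings at 44 h (SD, n = 2 each), with a log2 fold change of -3.52 for CycD_E2F (standard error 0.28, adjusted p = 1.8e-06) and -2.66 for E2F (standard error 0.27, adjusted p = 1.9e-05). At 24 h it did not pass the test in either genotype, with 0.13 for CycD_E2F (adjusted p = 0.797) and 0.68 for E2F (adjusted p = 0.0834). At 24 h the whole list, *Cdc7* included, summed to 110 and 106 CPM in Ctr wings, so *Cdc7* was higher in Ctr wings at 44 h than at 24 h. In CycD_E2F and in E2F wings, 0 of the 15 tested genes of the list were called higher at 44 h than at 24 h. Relative to Ctr wings at 44 h, the values of *Cdc7* thus ran against those of the replication genes, while its Ctr level itself differed between the stages.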

How the data were processed

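The files hold counts of reads on each of 17559 genes in 24 RNA libraries, which the authors deposited without normalization and with replicates kept apart. The submitters' processing notes name STAR, HTSeq, Bowtie2 and the dm6 genome, and the labels name a stranded mRNA library kit. Versions, the annotation release and the strand and overlap settings of the counting are not given in the sources used here, so counts of genes with overlapping exons are uncertain. Beside the reads on genes, reads outside genes made up 3.84% to 7.43% of a library, reads on more than 1 gene up to 0.73% and reads aligned to several places 31.6% to 62.8%. These rows were left out of library sizes and tests. The 34 FAIRE samples were not analysed here.

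Counts were fitted in R 4.3.3 with edgeR 4.0.16 (quasi-likelihood F-test, TMM, filterByExpr at min.count 10 and min.total.count 15, Benjamini-Hochberg over all genes tested), with 1 coefficient per group, separately for the 12 wild-type libraries (8669 genes) and the 12 transgenic libraries (9636 genes). Standard errors were taken as the absolute log2 fold change over the square root of F. Levels are CPM on TMM-scaled library sizes. TMM factors were 0.565 and 0.585 for Ctr at 44 h, 0.717 and 0.724 for wild type at 44 h, and 0.838 to 1.38 for the others. Replicates of each group differed by more than sampling noise (chi-square per degree of freedom 7.25 to 112). The procedure was tested on simulated counts.

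Libraries were grouped by their titles. The replication genes, the lists and the comparisons were chosen with earlier results of these data known. Full statistics are given, in each comparison, for the genes with the largest and the smallest absolute change within a role, for genes called against the direction of most others, and for *PCNA*. Other genes are given by counts, ranges or levels, and genes outside this rule that are singled out were chosen after their values were seen. Gene coordinates come from an Ensembl annotation and promoters from RefSeq, both on the dm6-equivalent Release 6 assembly.

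The alternatives were DESeq2 1.42.0, RLE scaling, library totals, all genes with 1 count or more, a replicate block, a fit restricted to the groups compared, and leaving out single libraries. A block with the numbers of the L3 libraries crossed was added after seeing the data.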

Additional observations from a re-analysis of the deposited data

Results flagged for a closer look

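For some replication genes the effect of a genotype at 44 h differed from that at 24 h by the interaction test in edgeR, which compares the 2 effects directly. Values are log2 differences of effects, 44 h minus 24 h, at an adjusted p under 0.05.

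For E2F against Ctr, 2 genes had a larger effect at 44 h, beside 6.16% of all genes, and 3 a smaller one, beside 7.5%, so that both shares are near those over all genes. They were *Mcm7* at 1.18 and *PolE2* at 5.39, and *Gnf1* at -1.63, *Dref* at -1.62 and *RfC4* at -1.53. The result for *Mcm7* was lost in 7 of 14 alternatives and that for *PolE2* in 3 of 14.

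For CycD_E2F against Ctr, 9 genes had a larger effect at 44 h, beside 7.98% of all genes. These were *PCNA* at 1.79, *RnrL* at 1.67, *Mcm2* at 1.62, *dpa* at 1.74, *Mcm5* at 2.06, *Mcm7* at 2.22, *Mcm6* at 1.13, *PolE2* at 6.09 and *PolA1* at 1.0. A larger effect here is relative to Ctr and need not be a higher level. *Mcm7* averaged 88.2 CPM at 44 h against 114 CPM at 24 h in CycD_E2F wings, and 1.08 against 6.5 CPM in Ctr wings. The number with a smaller effect past the fold limit was 0 in edgeR. *PolE2* had no counts in Ctr wings at 44 h, so its values depend on the prior count of the fit and give no size.

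For CycD_E2F against E2F, the log2 fold change was higher at 44 h than at 24 h for 5 genes, beside 2.82% of all genes, *Gnf1* at 1.30, *Mcm2* at 1.28, *dpa* at 1.09, *Mcm7* at 1.03 and *Prim2* at 1.20. For *Prim2*, which was lower in CycD_E2F wings at 24 h, this was a change toward 0, and it was lost in 7 of 14 alternatives. The number with a lower value was again 0. In this comparison the CycD_E2F and E2F wings also differed in *E2f1* RNA at both stages, and the part of that difference was not tested.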

How the results depend on the processing

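The counts of called replication genes stayed within 1.5 times the reported value in 103 of the alternatives that kept all libraries, against 12 in which they did not, and in 62 of 88 that left one out, and none of the 331 called results of these genes changed direction in any alternative. Scaling by library totals, which shifts the median of all genes by -0.95 to 0.98 on the log2 scale, gave 32 calls for 6 h against L3, 19 for 18 h against 6 h, 8 for CycD_E2F against E2F at 44 h, 31 and 7 for 44 h against 24 h in Ctr and in CycD_E2F wings, and 8, 25 and 20 for the interactions of E2F against Ctr, CycD_E2F against Ctr and CycD_E2F against E2F. DESeq2 gave 1 for 18 h against L3 and 8 for the interaction of E2F against Ctr, as did the fit of every gene with at least 1 count (8), and the fit of only the groups compared gave 12 for Ctr wings. The cause of these shifts was not tested.

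With one library left out, the numbers ranged from 10 to 27 for 6 h against L3, 3 to 14 for 18 h against 6 h, 16 to 30 for 24 h against 18 h, 13 to 16 for 36 h against 24 h, 1 to 6 for 44 h against 36 h, 0 to 1 for 18 h against L3, 19 to 25 for 24 h against 6 h, 35 to 36 for CycD_E2F and for E2F at 24 h, 35 to 36 for CycD_E2F and 33 to 33 for E2F at 44 h, 3 to 8 and 3 to 5 for CycD_E2F against E2F at 24 h and 44 h, 18 to 21, 21 to 25 and 2 to 6 for the stages in Ctr, E2F and CycD_E2F wings, and 2 to 5, 8 to 14 and 1 to 6 for the interactions. The replicate numbers are shared between groups, but nothing ties same-numbered libraries to each other, and there are 2 pairs per comparison. Their deviations correlated across genes between -0.208 (18 h against L3) and 0.244 (24 h against 6 h). The replicate block changed the counts by -2 to 1 (32 again for 24 h against 18 h), and with crossed L3 numbers 18 h against L3 gave 4. Levels under the 3-count floor, frequent in the wild-type libraries from 24 h on, limit the size of those folds.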
